A study of Mus musculus with 6 samples.

Results

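Alarmins are molecules with a role inside the cell that act as danger signals once they reach the outside. HMGB proteins are chromatin proteins that bend DNA, and outside the cell HMGB1 binds the receptors RAGE, TLR2 and TLR4. S100 proteins are small calcium-binding proteins. S100A8 and S100A9 form calprotectin, which fills the cytosol of neutrophils, whereas S100A4, S100A6, S100A10 and S100A11 are made by many cell types and bind annexins, myosin or one another. Thrombomodulin is an endothelial membrane protein that binds thrombin, and its lectin-like domain is known to bind HMGB1.

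The 9 genes described here are the 3 HMGB genes Hmgb1, Hmgb2 and Hmgb3 and the 6 S100 genes S100a8, S100a9, S100a4, S100a6, S100a10 and S100a11, of 16370 genes tested in lung. They were taken by gene name as HMGB and S100 alarmin genes, and the rule that picks them uses no measured value, although they were proposed with earlier results of these data known. Where a gene had several probes, the probe with the highest mean signal over the 6 arrays stood for it, and the other probes are given beside it. Male C57BL6 mice, 10 weeks old, had been starved for 16 h and given 20 mg/kg of LPS i.p., a bacterial cell wall component used here as a model of endotoxaemia. The 3 saline-treated mice then received saline and the 3 rhTM-treated mice recombinant human thrombomodulin (rhTM, 30 mg/kg), in both groups at 3 and 24 h after LPS. Whole lung was taken at 30 h, and the RNA of each mouse was read on its own 1-colour array. All 6 mice had received LPS, so these arrays compare rhTM with saline after LPS and do not measure the response to LPS itself.

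Each level below is the processed signal of a probe as a multiple of its array's 75th percentile of signal, which lay between 675.4 and 849.8 on the 6 arrays. Levels of different probes are not compared with each other. In the scanner output (the scans), saline replicate 1 and rhTM replicate 3 shared a slide and a scan session (slide 2), and the other 4 arrays shared another (slide 1). A deposited table of values holds the same arrays, but its column for saline replicate 1 matches the scan of rhTM replicate 2 and the reverse. Only 0.137% and 0.135% of probes in these columns lay within 0.1% of the scan of the same name, against 99.9 to 100% in the other columns. Which assignment is right could not be settled from the sources used here. Replicates are therefore numbered by the scans, and the difference by the authors' table is given beside the difference by the scans where groups are compared. In that table, both arrays of slide 2 were rhTM arrays. The array named saline replicate 1 in the scans had a spike-in slope of 0.826, out of the software's range, against 1.07 to 1.09 on the other arrays. Lung identity was checked on markers: surfactant protein C (Sftpc), the marker of alveolar type 2 cells, lay between 482.4 and 827.5 times the 75th percentile on the 6 arrays.

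The 9 genes were read by 16 probes, all well above background on all 6 arrays, and none was saturated. S100a9 was the nearest to saturation, at most 49.9% of the saturation value. RefSeq (GRCm38.p6) gave 9 promoter windows for 8 of the 9 genes, and the 250 bases before each start were searched on both strands for short motifs. Stretches of 120 bases that end just before the start are shown for the HMGB genes, which share a motif, and for S100a8 and S100a4, which share another. Capitals mark the CCAAT box, the GC box (GGGCGG), the TATA box (TATAAA) and the C/EBP-type motif (TTNNGNAA).
Hmgb1, chr5:149053058-149053177, minus strand: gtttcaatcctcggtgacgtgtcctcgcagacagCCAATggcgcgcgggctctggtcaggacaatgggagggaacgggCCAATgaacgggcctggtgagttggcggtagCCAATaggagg
Hmgb2, chr8:57511723-57511842, plus strand: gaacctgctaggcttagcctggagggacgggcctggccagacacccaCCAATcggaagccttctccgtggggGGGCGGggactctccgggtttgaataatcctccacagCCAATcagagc
Hmgb3, chrX:71555797-71555916, plus strand: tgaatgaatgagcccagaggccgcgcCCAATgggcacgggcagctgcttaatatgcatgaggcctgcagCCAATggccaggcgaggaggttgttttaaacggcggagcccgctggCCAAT
S100a8, chr3:90668951-90669070, plus strand: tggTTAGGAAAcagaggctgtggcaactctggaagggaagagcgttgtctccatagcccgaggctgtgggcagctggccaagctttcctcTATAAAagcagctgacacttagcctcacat
S100a4, chr3:90603650-90603769, plus strand: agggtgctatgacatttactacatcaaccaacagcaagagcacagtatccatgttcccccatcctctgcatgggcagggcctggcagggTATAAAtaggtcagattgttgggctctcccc

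All 3 HMGB genes held CCAAT at least 3 times in the 250 bases, 3 times in Hmgb1 (in 1 of its 2 windows) and Hmgb3 and 4 times in Hmgb2, and 1 copy in each lay within 11 bases of the start. Of 32851 promoter windows, 33.8% held CCAAT and 2.79% held it at least 3 times. The other Hmgb1 window held the GC box and no CCAAT. Hmgb2, Hmgb3 and S100a9 also held GGGCGG. Outside the HMGB genes, S100a6 held CCAAT in a single copy on the opposite strand. Among the S100 genes, S100a8 and S100a4 held TATAAA between 25 and 31 bases before the start (12.4% of all windows, anywhere in the 250 bases), S100a8 and S100a9 held the C/EBP-type motif TTNNGNAA (36.8%), and S100a11 held GGGCGG 3 times (32.7% with at least 1 copy) and the AP-1-type motif TGANTCA 2 times (6.75%). The NF-kappaB-type motif searched (in 4.65% of all windows) was found in none of the 9 windows. These matches describe letters only and do not show binding.

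None of the 9 alarmin genes differed between rhTM-treated and saline-treated mice past the threshold. By the scans, limma with Benjamini-Hochberg adjustment over all 16370 genes called 0 of 9 members at an adjusted p under 0.05 and 0 of 9 at an unadjusted p under 0.05. Over all genes the adjusted share was 0%, and 0.696% were higher and 1.17% lower at an unadjusted p under 0.05. The methods' t-test also gave 0 of 9 members at an unadjusted p under 0.05. By the authors' table, 0 of 9 were called after adjustment (0% of all genes) and 2 of 9, S100a8 and S100a9, were higher at an unadjusted p under 0.05, as were 6.95% of all genes, with 7.01% lower. The mean was higher in rhTM-treated mice for 8 of 9 members by the scans, against 50.7% of all genes higher and 49.3% lower, and for 7 of 9 by the authors' table, against 46.0% higher and 54.0% lower. The median difference of the members was 0.08 on the log2 scale by the scans (all genes 0.0026) and 0.10 by the table (all genes −0.02). For 6 of the 9 members the highest of the 6 arrays was rhTM replicate 1, which was also the highest for 29.8% of all genes and the lowest for 26.6%. Leaving that array out, 3 of 9 members were higher in rhTM-treated mice and 6 lower, with a median of −0.02.

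**Figure D1:**
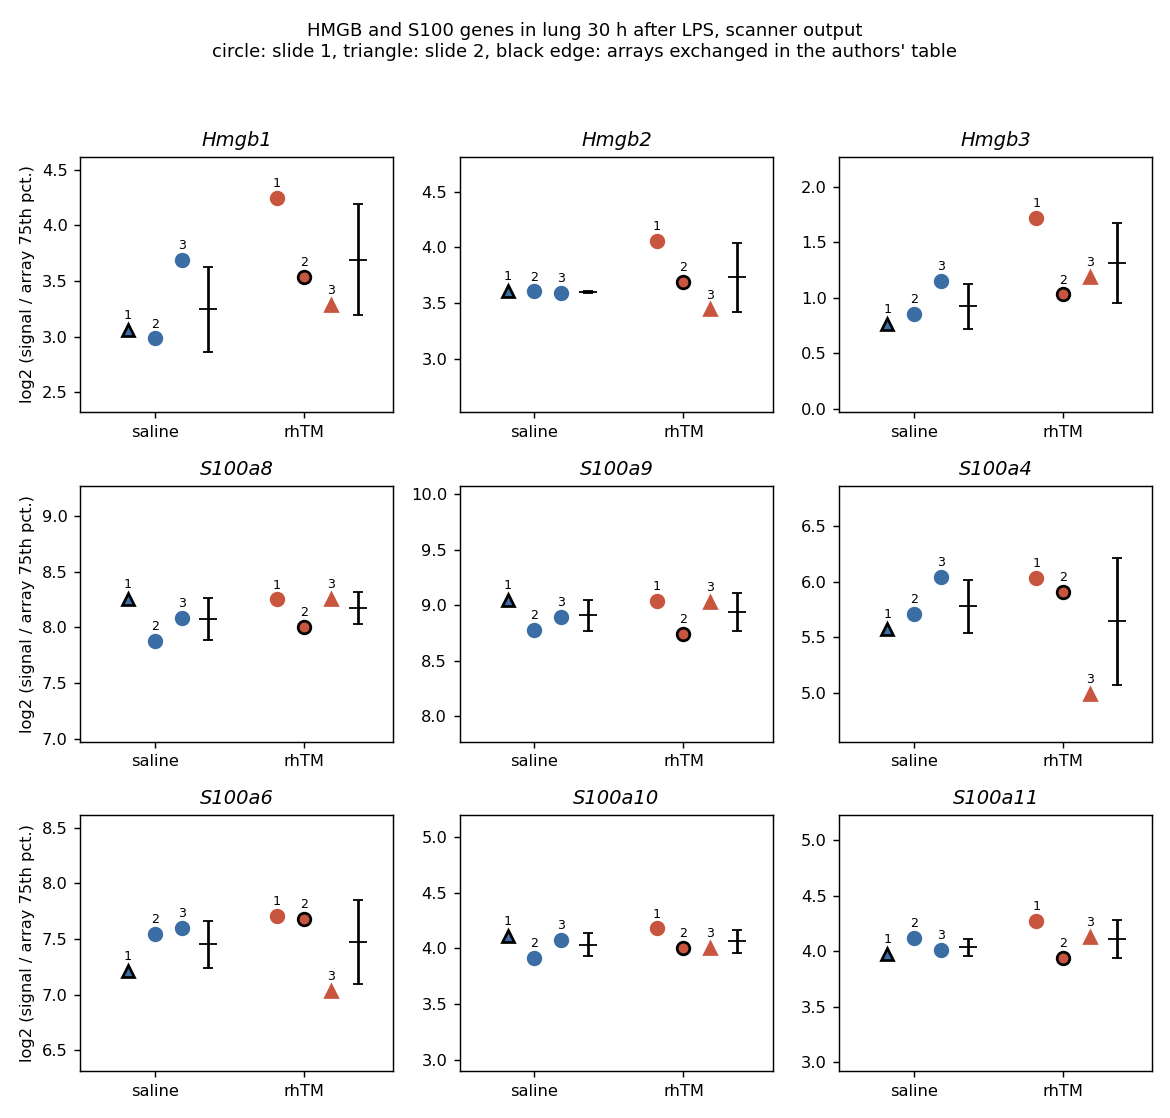
Levels of the 9 genes on each array by the scans, as log2 of the signal over the array's 75th percentile, with every panel spanning the same number of log2 units. Points are mice (numbers are replicates), the bar and whiskers beside each group are the mean and SD of 3 arrays, and the arrays exchanged in the authors' table have black edges. The groups overlap in all 9 panels, and rhTM replicate 1 is the highest array for the 3 HMGB genes.

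Hmgb1, whose protein is the best known HMGB alarmin, had the largest difference of means among the 9 genes by the scans, whereas by the authors' table it was that of S100a4 (−0.36). Its level was 8.36, 7.91 and 12.9 in saline replicates 1, 2 and 3 and 19.0, 11.6 and 9.76 in rhTM replicates 1, 2 and 3. Saline replicate 3 lay above rhTM replicates 2 and 3, so the groups overlapped. The log2 difference was 0.45 (SE 0.30, 95% interval −0.26 to 1.16, limma adjusted p = 0.9999), and by the exact two-sided permutation test over 3 against 3 arrays, which cannot go below 0.1, p was 0.3. By the authors' table the difference was 0.13 (SE 0.34, limma adjusted p = 0.8767), and without rhTM replicate 1 it was −0.23 by the table and 0.17 by the scans.

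Both other Hmgb1 probes had a higher mean in rhTM-treated mice too. Their log2 differences were 0.32 and 0.35 by the scans and 0.31 and 0.33 by the table, with overlap of the groups under both assignments. For all 3 Hmgb1 probes saline replicate 2 was the lowest array and rhTM replicate 1 the highest. On both slide 2 arrays the brightest probe lay lower, relative to its own mean, than the other 2 probes. The mouse genome holds processed copies of Hmgb1, and whether its probes also read those was not checked here.

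Hmgb2, the HMGB protein of dividing and lymphoid cells, was almost level in saline-treated mice. It stood at 12.2, 12.2 and 12.0 in saline replicates 1, 2 and 3 and at 16.7, 12.9 and 10.9 in rhTM replicates 1, 2 and 3. The rhTM-treated mice lay on both sides of the saline-treated mice. The log2 difference was 0.13 (SE 0.17, interval −0.28 to 0.54) by the scans and 0.08 (SE 0.17) by the table, and without rhTM replicate 1 it was −0.03 and −0.10. The remaining 3 Hmgb2 probes gave 0.10, 0.18 and 0.25 by the scans, all with overlap. By the table they gave 0.18, −0.10 and 0.45, the last without overlap of the groups (limma adjusted p over all probes = 0.3309), so the Hmgb2 probes differed in sign under that assignment. Markers of dividing cells, to which Hmgb2 is often tied, had a lower mean in rhTM-treated mice for 10 of 10 genes by the scans and 8 of 10 by the table, none past the threshold. Their summed level ran from 8.58 to 11.4 in saline-treated and from 6.75 to 9.88 in rhTM-treated mice, and rhTM replicate 1, the highest array for Hmgb2, was the lowest for 9 of these 10 genes. The part of dividing cells in the Hmgb2 values was not tested.

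Hmgb3, a paralogue expressed mostly in embryonic and stem cells, stood at 1.70, 1.81 and 2.23 in saline replicates 1, 2 and 3. In rhTM replicates 1, 2 and 3 it stood at 3.30, 2.04 and 2.28. Saline replicate 3 lay above rhTM replicate 2, and the groups overlapped. The log2 difference was 0.39 (SE 0.21, interval −0.12 to 0.89, limma adjusted p = 0.9999) by the scans and 0.21 (SE 0.24) by the table, and without rhTM replicate 1 it was 0.18 and −0.03. The dimmer Hmgb3 probe gave 0.56 by the scans with overlap and 0.79 by the table without overlap (limma adjusted p over all probes = 0.3309). Its highest array was rhTM replicate 3, not replicate 1.

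**Figure D2:**
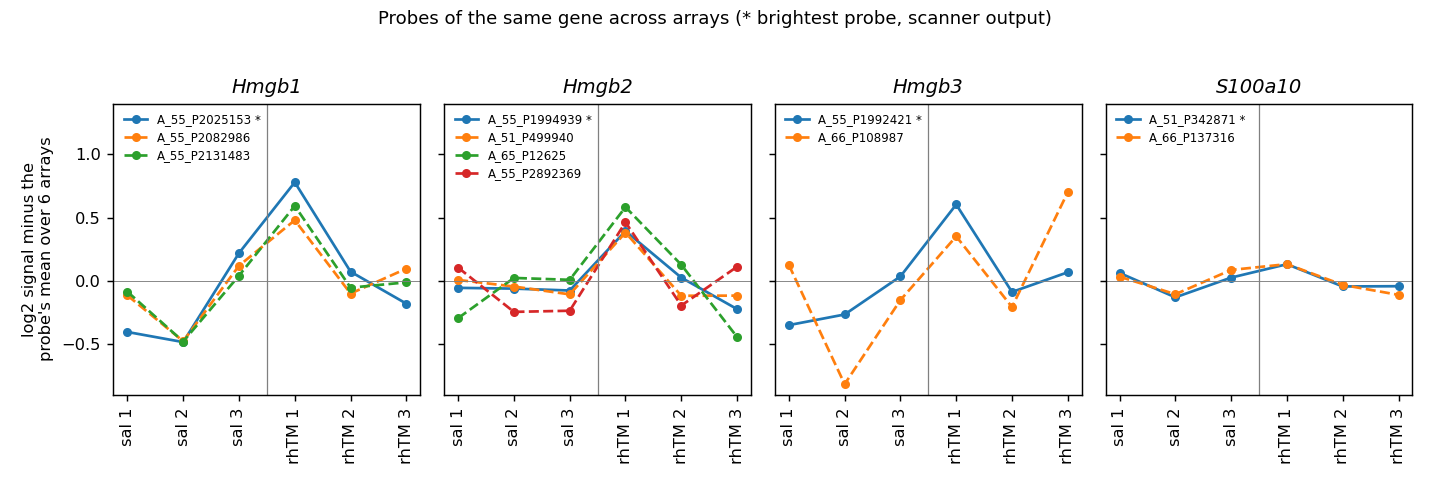
Log2 signal of each probe of Hmgb1, Hmgb2, Hmgb3 and S100a10 on the 6 arrays (scans), with the probe's own mean over the 6 arrays subtracted. Solid lines with a star in the legend are the brightest probes and dashed lines the other probes. The S100a10 probes run close together, the brightest Hmgb1 probe lies below the other 2 on both slide 2 arrays, and the Hmgb3 probes part on saline replicates 1 and 2 and rhTM replicate 3.

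S100a8 and S100a9, the calprotectin genes, had overlapping groups by the scans. S100a8 stood at 305.6, 235.1 and 272.2 in saline replicates 1, 2 and 3 and at 305.0, 256.9 and 305.9 in rhTM replicates 1, 2 and 3. S100a9 stood at 530.5, 438.8 and 476.2 in saline replicates 1, 2 and 3 and at 527.0, 428.5 and 521.9 in rhTM replicates 1, 2 and 3. In both genes, saline replicate 1 and rhTM replicates 1 and 3 were close together and above the other 3 arrays. The log2 difference was 0.10 for S100a8 (SE 0.15, interval −0.25 to 0.45) and 0.03 for S100a9 (SE 0.14, interval −0.31 to 0.37).

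The 3 high arrays are exactly those that the authors' table assigns to rhTM-treated mice. By that table both genes were higher in rhTM-treated mice without overlap, by 0.26 for S100a8 (SE 0.10, interval 0.03 to 0.50, limma unadjusted p = 0.0335, adjusted p = 0.3347) and by 0.24 for S100a9 (SE 0.09, interval 0.01 to 0.46, limma unadjusted p = 0.0427, adjusted p = 0.3459). The exact two-sided permutation test gave 0.1 for each, the smallest p that 3 against 3 arrays allow. Of all genes, 9.68% were higher and 12.0% lower without overlap by the table. By the scans the shares were 2.95% higher and 2.57% lower, and 0 of 9 members were among them. Without scaling between arrays the table gave 0.03 for S100a8 and −0.0010 for S100a9, where the median of all genes was −0.26. Relative to that median, the differences were 0.29 and 0.26. With quantile normalization of the table the differences were 0.02 for S100a8 (limma unadjusted p = 0.845) and −0.05 for S100a9 (limma unadjusted p = 0.657). Quantile normalization sets a value by its rank on the array, and what that does to signals as high as these was not tested.

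Before scaling, the S100a8 signal ran only from 192900 to 224800 and the S100a9 signal from 352500 to 388500 over the 6 arrays. The 75th percentile was lowest on slide 2 (687.9 and 675.4) and on rhTM replicate 1 (737.1), the same 3 arrays that were highest for both genes after scaling. Markers of neutrophils, the main source of both proteins, had a summed level of 319 to 365 in saline-treated and 326 to 482 in rhTM-treated mice over 11 of 12 genes tested, with rhTM replicate 1 at 482 and the other 5 arrays at 365 or below. By the scans 7 of these 11 genes had a higher and 4 a lower mean in rhTM-treated mice, from 0.49 for Camp, a granule peptide (0.20 by the table), to −0.31 for Ltf, lactoferrin of the granules (0.05 by the table). By the table, 8 were higher and 3 lower, and 2 of the 11 were higher at an unadjusted p under 0.05, against 6.95% of all genes. The 2 were Mpo, myeloperoxidase, at 0.42 (limma unadjusted p = 0.0336, no overlap; 0.04 by the scans) and Elane, neutrophil elastase, at 2.54 (limma unadjusted p = 0.0344, with overlap; −0.05 by the scans). The Elane level was 21.0 and 19.5 on the slide 2 arrays, saline replicate 1 and rhTM replicate 3, and between 1.38 and 1.73 on the other 4. None of the 11 passed the adjusted threshold under either assignment, and their part in the S100a8 and S100a9 values was not tested. In whole lung, fewer cells of a type and less RNA per cell cannot be told apart.

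**Figure D3:**
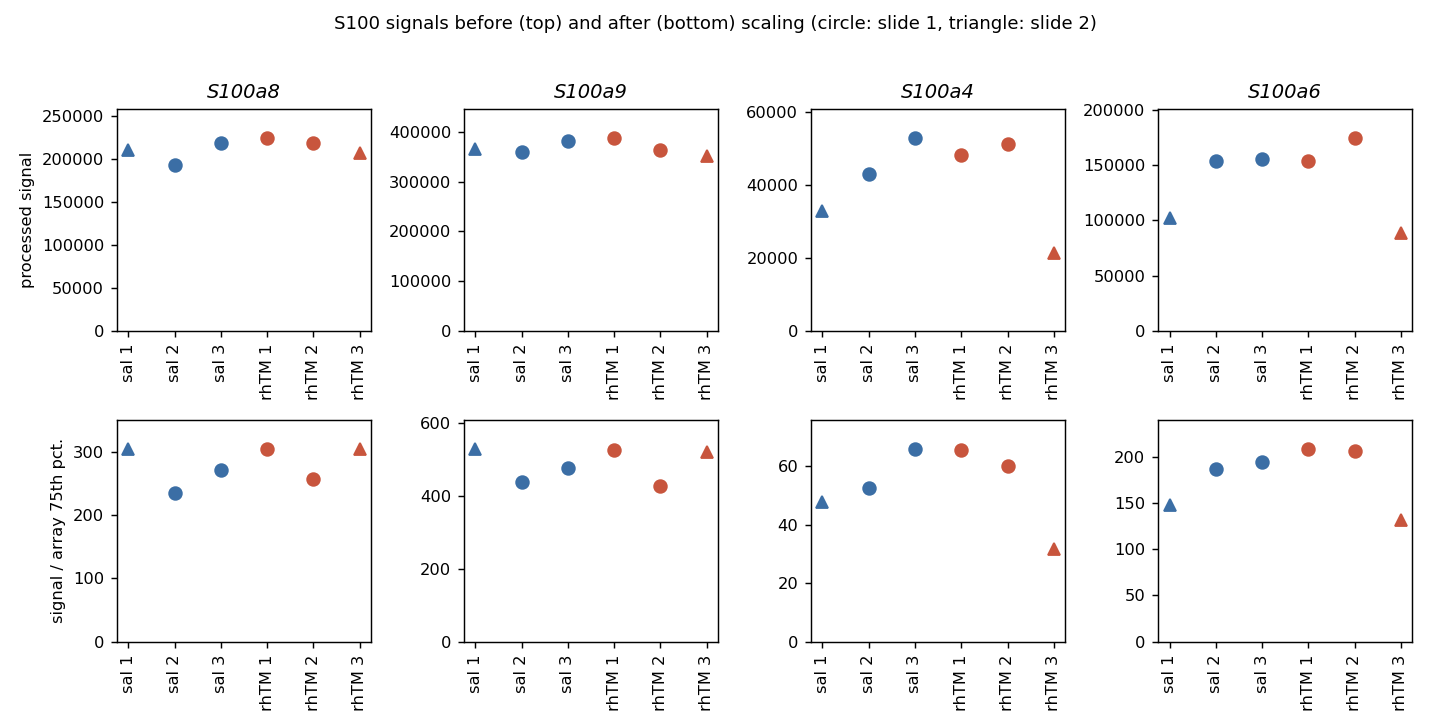
S100a8, S100a9, S100a4 and S100a6 on each array before scaling (top, processed signal) and after division by the array's 75th percentile (bottom), with saline replicates in blue, rhTM replicates in red and slide 2 as triangles. S100a8 and S100a9 are nearly flat before scaling, whereas S100a4 and S100a6 are lowest on both slide 2 arrays before and after it.

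S100a4, made by fibroblasts and macrophages among other cells, and its relative S100a6 had larger differences between slides than between groups by the scans. S100a4 stood at 47.6, 52.5 and 66.0 in saline replicates 1, 2 and 3 and at 65.5, 60.2 and 31.8 in rhTM replicates 1, 2 and 3. S100a6 stood at 148.1, 187.0 and 194.4 in saline replicates 1, 2 and 3 and at 208.7, 205.5 and 131.3 in rhTM replicates 1, 2 and 3. Both arrays of slide 2 lay below all 4 arrays of slide 1 in both genes, as did 19.7% of all genes. The mean of slide 2 was lower than that of slide 1 by 0.64 for S100a4 and 0.51 for S100a6 on the log2 scale. S100a8 had a slide 2 mean higher by 0.20. Both its slide 2 arrays lay above slide 1, but only narrowly above rhTM replicate 1 (305.6 and 305.9 against 305). That made 3 of 9 members with slide 2 on one side of slide 1, against 32.7% of all genes.

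By the scans, the log2 difference between the groups was −0.13 for S100a4 (SE 0.29, interval −0.83 to 0.57) and 0.02 for S100a6 (SE 0.22, interval −0.50 to 0.54). By the authors' table, where slide 2 holds only rhTM arrays, it was −0.36 (SE 0.26) and −0.29 (SE 0.18), with limma adjusted p of 0.5452 and 0.4815. S100a6 thus changed sign between the assignments. In a fit of the scans that blocked on slide, the values were −0.13 (SE 0.18) and 0.02 (SE 0.11), and the limma adjusted p of the 9 members was 0.92 or higher. Within slide 1 alone, the difference was 0.09 for S100a4 with overlap and 0.12 for S100a6, where both rhTM arrays lay above both saline arrays. Within slide 2, a single rhTM array minus a single saline array gave −0.58 and −0.17. Without rhTM replicate 3, the lowest array for both genes, S100a4 reached 0.19 and S100a6 0.24.

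The slides gave different values for other members as well. Within slide 1 alone, the log2 difference was 0.56 for Hmgb1, 0.28 for Hmgb2, 0.37 for Hmgb3, 0.15 for S100a8, 0.06 for S100a9, 0.10 for S100a10 and 0.04 for S100a11. Within slide 2, where each group has a single array, it was 0.22, −0.17, 0.42, 0.0012, −0.02, −0.11 and 0.15 in the same order, so Hmgb2, S100a9 and S100a10 had opposite signs on the slides. On slide 1, 2 of 9 members (Hmgb2 and S100a6) had both rhTM arrays above both saline arrays, against 15.1% of all genes, and 0 had both below, against 11.7%.

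S100a10, which binds annexin A2 on membranes, and S100a11, which binds annexin A1, varied least. S100a10 stood at 17.3, 15.1 and 16.8 in saline replicates 1, 2 and 3 and at 18.1, 16.0 and 16.1 in rhTM replicates 1, 2 and 3. S100a11 stood at 15.7, 17.4 and 16.1 in saline replicates 1, 2 and 3 and at 19.4, 15.3 and 17.5 in rhTM replicates 1, 2 and 3. The groups overlapped in both genes. The log2 difference was 0.03 for S100a10 (SE 0.12, interval −0.26 to 0.32) and 0.08 for S100a11 (SE 0.13, interval −0.24 to 0.39) by the scans, and 0.10 for each by the table (SE 0.10 and 0.12). Over the 9 members the exact two-sided permutation test by the scans gave a p of 0.2 for Hmgb3, the lowest, to 1 for S100a9 and S100a6. A further S100a10 probe gave −0.0079 by the scans and 0.04 by the table.

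**Figure D4:**
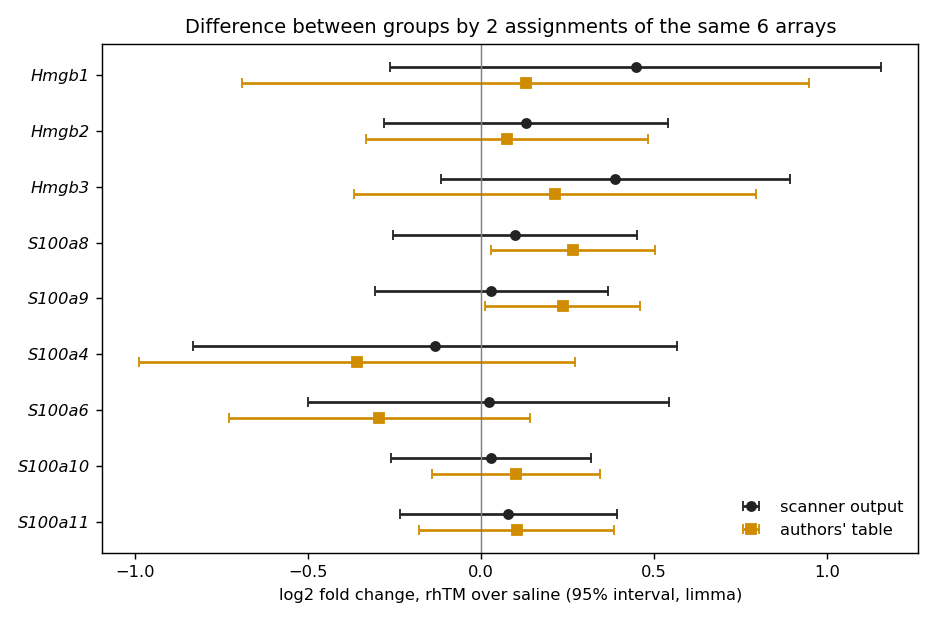
Log2 fold change of rhTM over saline for the 9 genes, with 95% intervals from limma, by the scans (black circles) and by the authors' table (orange squares), which use the same 6 arrays with 2 of them exchanged. All black intervals include 0, and the orange intervals of S100a8 and S100a9 alone do not, from 0.03 to 0.50 and from 0.01 to 0.46.

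Pairs of members lay at different distances from each other across the 6 arrays. The value used here is the root mean square difference of their log2 levels, each centred on its own mean over the 6 arrays. It is small for any pair of genes that vary little, whether or not they vary together. The value was 0.05 for S100a8 and S100a9, the smallest of the 36 pairs, 0.16 for S100a4 and S100a6 and 0.18 for Hmgb1 and Hmgb3. At the other end it reached 0.44 for S100a8 and S100a4. The values of a pair share the same 6 arrays, their scaling and their slides. On the 4 arrays of slide 1 alone, S100a8 and S100a4 came to 0.07, while Hmgb1 and Hmgb3 stayed at 0.17. There S100a8 and S100a9 came to 0.06, no longer the smallest value, with S100a8 and S100a10 at 0.04 and S100a9 and S100a10 at 0.05. The SD over the 6 arrays was 0.16 for S100a8, 0.14 for S100a9 and 0.09 for S100a10. For Hmgb1 and Hmgb3 it was 0.47 and 0.34. The order of the pairs thus depends on how much each gene varied and does not rank shared variation.

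By the same measure, the genes outside the 9 nearest to Hmgb1 were Gm2511 (0.02), Zfp493 (0.06) and Rnu12 (0.09), those nearest to S100a4 were Dbil5 (0.05), 2210039B01Rik (0.08) and Stfa2l1 (0.09), and those nearest to Hmgb3 were Kcnk1 (0.05), Tigd2 (0.05) and Gm6034 (0.05). Hmgb1, S100a4 and Hmgb3 were the 3 members with the largest SD over the 6 arrays, 0.47, 0.40 and 0.34 on the log2 scale. These likenesses are over 6 arrays and were picked from all genes tested, and they say nothing of shared function.

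No gene of the pathways around these alarmins passed the adjusted threshold under either assignment. Of the 18 receptors and binding proteins, all tested, 9 had a higher and 9 a lower mean in rhTM-treated mice by the scans, with a median of 0.02, and by the table, 11 were higher and 7 lower. Cd36, a scavenger receptor, was lower by the table without overlap, at −0.37 (limma unadjusted p = 0.0384; −0.21 by the scans). Emb, embigin, was higher by the table without overlap, at 0.24 (limma unadjusted p = 0.0862; 0.05 by the scans). Genes that are named for their value by the table alone and the single genes named for groups without overlap were chosen after their values were seen. Cd14, the LPS co-receptor of TLR4, had the largest difference of them, 0.47 (SE 0.38), with levels of 16.9, 17.8 and 24.3 in saline-treated and 49.6, 18.3 and 21.4 in rhTM-treated mice. Its value rested on rhTM replicate 1, the other 2 rhTM arrays lying within the saline range. By the table it was 0.39 (SE 0.39). For TLR4 itself the difference was 0.11 (0.18 by the table), for its partner Ly96 (MD-2) 0.04 (0.32 by the table), for Tlr2 −0.13 (−0.30 by the table), and for Trem1, an amplifying receptor of myeloid cells, −0.01 (0.24 by the table).

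Ager, which encodes RAGE and in lung marks alveolar type 1 cells, stood at 169.9, 173.1 and 134.4 in saline-treated and at 132.7, 149.5 and 139.0 in rhTM-treated mice. Saline replicate 3 lay within the rhTM range. Its difference was −0.17 (SE 0.14), from −0.30 to −0.06 over its 5 probes, and −0.05 by the table. Thbd, the endogenous thrombomodulin, gave −0.06 (SE 0.14; −0.15 by the table), and Bsg (basigin, a receptor of S100A9) −0.22 (SE 0.14; −0.05 by the table), the lowest of the receptors by the scans. By the table the lowest was Cd36.

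Partners of S100 proteins were measured for 10 of 11 genes, 4 with a higher and 6 with a lower mean under both assignments. The differences were −0.12 for Anxa2, the annexin bound by S100A10 (0.03 by the table), 0.15 for Anxa1, the annexin bound by S100A11 (0.37 by the table, limma unadjusted p = 0.0114, no overlap of the groups), −0.21 for the scaffold protein Ahnak (−0.06 by the table) and −0.37 for Anxa5 (−0.47 by the table), the lowest of the list by the scans. By the table the lowest was Plg, plasminogen, at −0.57 (limma unadjusted p = 0.00577, no overlap of the groups; 0.02 by the scans). Its probe was dim, with mean levels by the table of 0.0451 in saline-treated and 0.0303 in rhTM-treated mice. The 3 Ahnak probes ran from −0.21 to 0.29.

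Of the signalling relay below the receptors, 9 of 10 genes were tested, 5 with a higher and 4 with a lower mean by the scans. They ran from 0.18 for the kinase Irak4, without overlap by the scans but with overlap by the table (0.08), to −0.24 for Nfkb1 (−0.24 by the table). Of the 14 genes of HMGB1 release and modification, 10 were higher and 4 lower, from 0.23 for the inflammasome adaptor Pycard (0.22 by the table) to −0.32 for Parp1 (−0.21 by the table). Casp4, the caspase that senses LPS inside the cell, was higher without overlap by the scans at 0.20 and overlapped by the table (0.14). By the table these counts were 3 and 6 for the relay and 11 and 3 for release, and the adaptor ligase Traf6 of the relay stood at −0.32 without overlap (limma unadjusted p = 0.0156; −0.05 by the scans). By the table, Rela of the relay was higher (0.15) and Gsdmd, the pore-forming gasdermin D of the release list, lower (−0.23) without overlap, at limma unadjusted p of 0.205 and 0.0826, and both overlapped by the scans (0.0085 and −0.18). Each had 2 probes, which by the scans ran from −0.44 to 0.0085 for Rela and from −0.44 to −0.18 for Gsdmd.

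Among the other S100 genes, S100a3 stood apart. It encodes an S100 protein best known from hair follicle, and its probe was dim but well above background on all 6 arrays. The level was 0.136, 0.216 and 0.179 in saline replicates 1, 2 and 3 and 0.0895, 0.121 and 0.0883 in rhTM replicates 1, 2 and 3. All rhTM arrays lay below all saline arrays, and the log2 difference was −0.82 (SE 0.21, limma unadjusted p = 0.00689, adjusted p = 0.9999). By the authors' table the groups overlapped and the difference was −0.71 (SE 0.27, limma unadjusted p = 0.0341, adjusted p = 0.3362). S100g, a calcium-binding relative, was the highest of that list by the scans at 0.28 (−0.17 by the table). Of the 8 other S100 genes tested of 11, 5 were higher and 3 lower by the scans and 3 higher and 5 lower by the table.

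Other HMG proteins were tested for 13 of 14 genes, 9 with a higher and 4 with a lower mean by the scans and 6 and 7 by the table. By the scans, Tfam, the HMG-box protein of mitochondrial DNA, was the highest at 0.13 (−0.02 by the table) and the architectural protein gene Hmga1 the lowest at −0.08 (−0.03 by the table), with its 3 probes from −0.23 to 0.50. By the table, Ubtf was higher at 0.30 (limma unadjusted p = 0.0263; −0.0052 by the scans) and Hmgn5 lower at −0.32 (limma unadjusted p = 0.0341; 0.06 by the scans), both without overlap. Of 14 other alarmin and acute phase genes, 7 were higher and 7 lower by the scans, from 0.29 for the cold-inducible RNA-binding protein Cirbp (0.10 by the table) to −0.16 for the heat shock gene Hspa1a (−0.04 by the table). By the table, 8 were higher and 6 lower, and 4 of the 14 were higher at an unadjusted p under 0.05, against the 6.95% of all genes given above. The same 4 were those higher without overlap, against 9.68% of all genes. These were the acute phase gene Saa3 at 0.36 (limma unadjusted p = 0.0162; 0.09 by the scans), Lcn2, the iron-binding lipocalin, at 0.30 (limma unadjusted p = 0.0258; 0.14 by the scans), the alarmin cytokine Il33 at 0.56 (limma unadjusted p = 0.013; 0.10 by the scans) and the chaperone Hsp90aa1 at 0.35 (limma unadjusted p = 0.0137; 0.18 by the scans). By the table Il16 was lower at −0.28 (limma unadjusted p = 0.0198; −0.08 by the scans) and Hsp90b1 lower at −0.17 (limma unadjusted p = 0.178; −0.05 by the scans), both without overlap. Limma adjusted p was 0.3136 or higher for each of them.

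**Figure D5:**
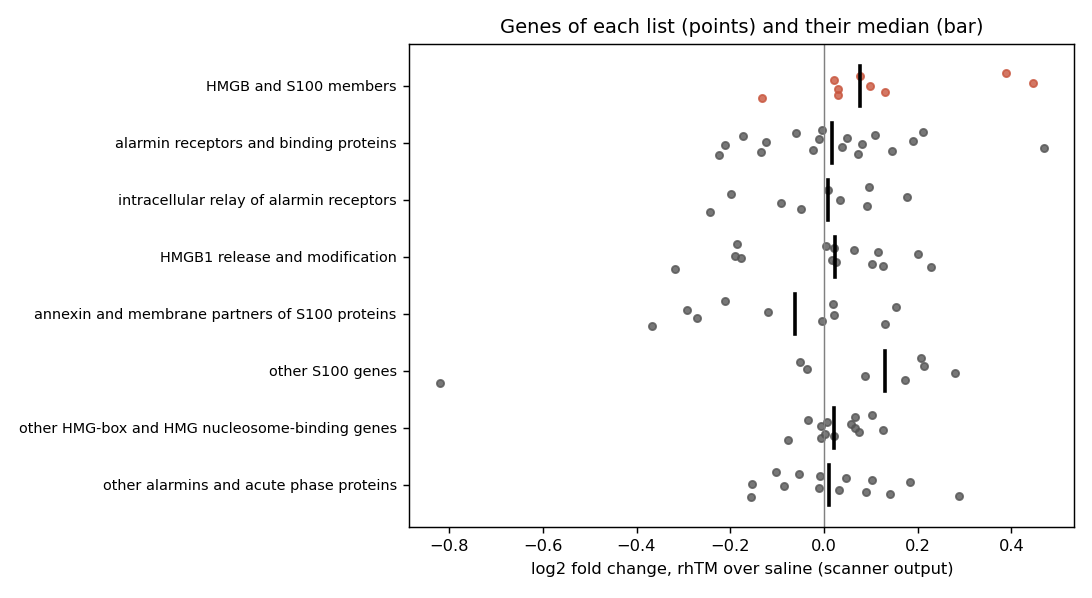
Log2 fold change of rhTM over saline by the scans for the 9 members (red) and for the tested genes of each pathway list (grey), with the median of each list as a black bar; vertical scatter within a row carries no value. The member median is 0.08, and S100a3 at −0.82 lies apart from the other points.

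Of the remaining markers, monocyte and macrophage genes had a lower mean for 7 of 10 genes by the scans and 9 of 10 by the table, between 0.16 for Marco (−0.17 by the table) and −0.25 for Csf1r (−0.19 by the table) by the scans. Ccr2 (−0.19) and Ly6c2 (−0.12), genes of inflammatory monocytes, were lower without overlap by the scans, as were 2.57% of all genes, and 0 of the 10 were by the table. Their summed level was 626 to 637 in saline-treated and 583 to 644 in rhTM-treated mice. Fibroblast markers, summed over 6 genes, lay at 140 and 175 on slide 2 and at 113 to 120 on slide 1, opposite in direction to S100a4 and S100a6. Other lists differed in direction, and the other S100 genes summed to 48.5 and 51.9 on slide 2 and to 59.5 to 74.9 on slide 1. The part of monocytes, macrophages and fibroblasts in the alarmin values was not tested.

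In these further marker lists no gene passed the adjusted threshold under either assignment. The genes with the highest and lowest log2 difference of each list by the scans are given with the table's value for the same gene. Endothelial genes ran from 0.28 for Cldn5 (0.36 by the table) to −0.46 for Tek (−0.67 by the table). By the table, 4 of the 8 endothelial genes were lower at an unadjusted p under 0.05, Tek, Pecam1 (−0.63), Emcn (−0.37) and Vwf (−0.50), the first 3 without overlap, and none was by the scans (7.01% of all genes by the table and 1.17% by the scans). The share of all genes lower without overlap by the table was 12.0%. Alveolar type 1 genes ran from 0.17 for Aqp5 (0.21 by the table, without overlap) to −0.67 for Cav1 (−0.51 by the table). Alveolar type 2 genes ran from 0.15 for Sftpd (0.17 by the table) to −0.16 for Sftpc (0.25 by the table), with 1 higher and 5 lower by the scans and 5 higher and 1 lower by the table. Ciliated cell genes ran from 0.40 for Tekt1 (0.48 by the table) to 0.07 for Hydin (0.56 by the table), and fibroblast genes from 0.37 for Lum (0.60 by the table) to −0.12 for Dcn (0.49 by the table). By the table, 2 of 6 ciliated cell genes (Hydin and Foxj1) and 2 of 6 fibroblast genes (Lum and Dcn, without overlap) were higher at an unadjusted p under 0.05. Of all genes by the table, 6.95% were higher at that p and 9.68% were higher without overlap. T cell genes ran from 0.07 for Cd3e (0.05 by the table) to −0.23 for Cd8a (−0.37 by the table), with 1 higher and 4 lower by the scans and 4 higher and 1 lower by the table. Platelet genes ran from 0.47 for Pf4 (0.18 by the table) to −0.48 for Itga2b (−0.26 by the table), and genes of dividing cells from −0.10 for Rrm2 (0.03 by the table) to −0.36 for Mcm5 (−0.33 by the table). Club cell genes ran from 0.05 for Scgb1a1 (0.34 by the table, limma unadjusted p = 0.0132, no overlap) to −0.96 for Bpifa1, a secreted airway protein gene that stood at 35.3, 73.5 and 37.9 in saline-treated and 28.3, 22.0 and 21.5 in rhTM-treated mice. Its groups did not overlap by the scans (limma unadjusted p = 0.015, adjusted p = 0.9999) and overlapped by the table, where it was −0.50.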

How the data were processed

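Lung RNA of 6 LPS-treated mice was read on 1-colour Agilent SurePrint G3 Mouse arrays. The authors deposited scanner output of Feature Extraction 10.7.3.1 per the file headers (9.1 per the submitters' processing notes), in which the processed signal of a spot is a linear intensity after background and trend correction within its array, with no scaling between arrays. A value table deposited beside it holds intensity values of the same arrays.

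Of 59305 non-control spots, outlier-flagged ones were left out, spots of a probe were averaged, and 398 of 56605 probes were dropped. The log2 signal minus the array's 75th percentile was used. Accessions of 32994 probes matched RefSeq genes (GRCm38.p6). A probe was kept when well above background on all 3 arrays of a group, and the brightest probe by mean over the 6 arrays stood for a gene. Groups come from the sample labels. They were compared with limma 3.58.1 in R 4.3.3 (lmFit, eBayes; Benjamini-Hochberg over all genes, threshold 0.05) and, for the members, by an exact two-sided permutation test. The fit was tested on simulated data. The small number of arrays limits precision. The members and lists were chosen with earlier results of these data known.

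The named genes are the 9 members with all their probes, 11 fixed receptors and partners (Ager, Tlr2, Tlr4, Cd14, Ly96, Trem1, Thbd, Bsg, Anxa2, Anxa1, Ahnak), the highest and lowest gene of every other list (B cell genes are not reported here), and the 3 genes nearest to each of the 3 most variable members. Further genes of the lists, named for their values by the table or for groups without overlap, were chosen after their values were seen. Alternatives were the authors' table (also blocked on slide, without each array, unscaled or quantile-normalized), normexp (offset 50, on median spot signals, as mean signals were not used here), quantile normalization, other percentiles or no scaling, other filters, a block for slide or for replicate number, averaging a gene's probes, the methods' t-test, slide 1 alone, and each array or both exchanged arrays left out. Slide 1 alone and the unscaled and quantile-normalized table were added after seeing the data.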

Additional observations from a re-analysis of the deposited data

How the results depend on the processing

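Under the 28 alternatives run, the count of members changed stayed at 0, and of 252 member values 209 kept their direction and 43 reversed. By the authors' table, S100a6 was −0.29. Without both exchanged arrays it was −0.20. With quantile normalization, S100a6 was −0.029 and S100a10 −0.0063. With the percentile taken over probes detected on every array, S100a6 was −0.0022. Without scaling, S100a9 was −0.0032, S100a6 −0.011 and S100a10 −0.0035. With normexp, S100a10 was −0.040. In the table with no scaling, which moved the median of all genes to −0.26, Hmgb1 was −0.11, Hmgb2 −0.16, Hmgb3 −0.023, S100a9 −0.0010, S100a6 −0.53, S100a10 −0.14 and S100a11 −0.13. Relative to that median, all of these but S100a6 (−0.27) were above 0. In the table with quantile normalization, S100a9 was −0.049 and S100a6 −0.51. On slide 1 alone, S100a4 was 0.093, and in the table blocked on slide 0.14. In the last setting slide 2 holds rhTM arrays only, so its values rest on rhTM replicate 1 against the saline arrays of slide 1, and Hmgb1 was 0.84, Hmgb2 0.43 and Hmgb3 0.71 (lowest limma adjusted p of the 9 members in this setting 0.101). The lowest over all alternatives was 0.06516, for S100a6 in the table without rhTM replicate 1 (−0.49), where 4 of 9 members had an unadjusted p under 0.05 (S100a8, S100a9, S100a4 and S100a6), as had 4229 of all 16622 genes tested, and 0 members passed after adjustment.

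Over all genes, limma called 187 higher and 245 lower (of pathway genes, 2) by the table blocked on slide, and 1 lower without both exchanged arrays and on slide 1 alone. Leaving out each array gave 0 to 2 higher and 0 to 3 lower by the scanner output, and 0 to 477 higher and 0 to 112 lower (pathway genes 0 to 4) by the table, where the highest counts were those without rhTM replicate 1. The members ranged from 0.17 to 0.67 for Hmgb1, −0.034 to 0.27 for Hmgb2, 0.18 to 0.53 for Hmgb3, −0.0007 to 0.19 for S100a8, −0.036 to 0.13 for S100a9, −0.33 to 0.19 for S100a4, −0.10 to 0.24 for S100a6, −0.029 to 0.068 for S100a10 and −0.0029 to 0.17 for S100a11 by the scanner output. By the table they ranged from −0.23 to 0.36, −0.10 to 0.21, −0.035 to 0.44, 0.21 to 0.31, 0.20 to 0.28, −0.61 to −0.09, −0.49 to −0.15, 0.06 to 0.15 and 0.03 to 0.18 in the same order. Among these table values, Hmgb1 was −0.081 without saline replicate 2, and S100a6 was −0.24 without the array that the scans name saline replicate 1. The cause of these shifts was not tested. With the replicate number as a block (replicate block), 0 genes were called and Hmgb1 was 0.45 (SE 0.33). Same-numbered arrays by the scans had correlations of −0.30, 0.44 and −0.45 after centring within each group. With 3 arrays per group spread over 2 slides, these values cannot tell whether the numbers pair the samples.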
